A study of Mus musculus with 12 samples.

Results

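The hepatic transcriptomes of mice given an extract of Chrysanthemum morifolium Ramat leaves (CLE) were compared with those of mice given luteolin (LU), a flavone of the same leaves. Both groups ate the high-fat diet (HFD) of the study. The CLE mice were numbered 2, 4 and 11 and the LU mice 2, 3 and 8, so 6 of the 12 livers of the series entered the comparison, chosen by their labels alone. All animals were male C57BL/6J mice, individually housed, given their diets from 5 weeks of age for 16 weeks and examined at 21 weeks. CLE mice received HFD with 1.5% (w/w) extract and LU mice HFD with 0.003% (w/w) luteolin, while the 3 HFD mice received the HFD alone and the 3 mice of the normal diet group (ND) a diet low in fat. The extract holds luteolin and its glycosides beside diosmetin and acacetin glycosides, apigenin, quercetin and chlorogenic acid, so the groups differed in the compounds given and in their amounts. The sequenced livers were described as representative of their groups, and the way they were picked was not stated. The study examined what the extract and its flavone each did under the diet, and the comparison described here sets the CLE livers against the LU livers.

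Luteolin is a plant flavone, taken up from the gut and conjugated by glucuronosyltransferases, sulfotransferases and methyltransferases in the gut wall and liver. Flavones can bind the aryl hydrocarbon receptor, which drives the Cyp1 genes, and electrophilic plant compounds can release the antioxidant regulator NRF2. The liver under a high-fat diet stores triglyceride, exports phosphatidylcholine and sphingomyelin in lipoproteins and secretes cholesterol into bile, and genes of these routes were grouped into lists below.

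Expression was given as FPKM, the fragments assigned to a transcript relative to its length and to the number of fragments mapped in that liver. Values were summed by gene name and compared as log2(FPKM + 1), so that a difference of 1 is a doubling for an abundant gene and less than that for a gene near 0. Genes averaging 0.5 FPKM or more across the 12 livers were tested, 11566 in all. The depth of the libraries is unknown, since the values are not counts. Labels give the mice as separate animals, so errors and p-values reflect the spread between mice.

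The livers carried the genes of hepatocytes at like levels in both groups, with a summed level of 10 hepatocyte markers of 17925 to 23642 FPKM in CLE and 19959 to 39907 FPKM in LU livers. The highest of these sums was that of LU mouse 3, in which albumin was listed at 19853 FPKM, whereas it was listed at 0 in the other 11 livers. Such a 0 in the main product of hepatocytes shows that a listed 0 can be a failed estimate. CLE mouse 4 and LU mouse 3 lay farthest from the remaining livers of their groups. The deviation of genes from their mean over the 12 livers correlated with their GC content (Spearman's rho across genes, which are not independent) at 0.16 to 0.48 in CLE and 0.21 to 0.36 in LU livers, highest in CLE mouse 4, against -0.37 to -0.14 in ND and HFD livers. CLE and LU livers thus shared the sign of this shift, which differed from that of the HFD livers.

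CLE and LU livers were about as far from each other, on average, as livers of the same group. The distance between a pair of livers, taken as the root mean square difference of log2(FPKM + 1) over the tested genes, averaged 0.378 over the 9 CLE to LU pairs and 0.380 over the 6 pairs within the groups. Within the CLE group it was 0.332, 0.383 and 0.435, and within the LU group 0.341, 0.361 and 0.426. Between the groups it ran from 0.240, for CLE mouse 2 and LU mouse 8, to 0.486, for CLE mouse 4 and LU mouse 3. The former pair was the closest of all 66 pairs of livers in the series, closer than any pair within a group. The difference of the averages was -0.0012, and a one-sided exact permutation test over the 10 splits of the 6 livers into groups of 3 gave p = 0.60, where the smallest p that it allows is 0.10. HFD livers were at a mean distance of 0.445 from CLE and 0.431 from LU livers and of 0.306 from each other.

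**Figure D1:**
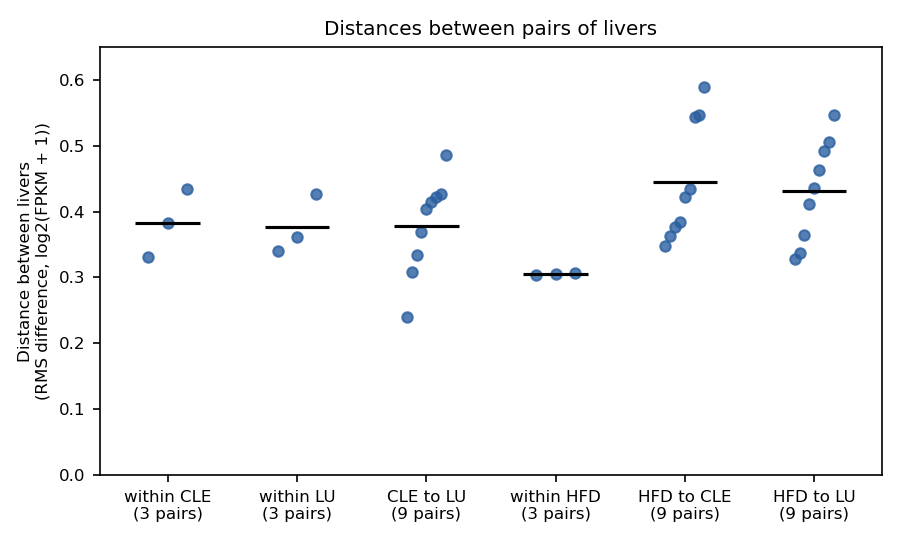
Distance between pairs of livers (root mean square difference of log2(FPKM + 1) over the tested genes, vertical axis) for pairs within and between the CLE, LU and HFD groups. Each point is a pair of livers and each bar the mean, and the 9 CLE to LU pairs, from 0.240 to 0.486, cover the range of the pairs within CLE and within LU.

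At the level of single genes, an adjusted p under 0.05 (limma, Benjamini-Hochberg) was reached by 1 of 11566 genes when CLE was compared with LU, which is 0.00865% of the genes. An unadjusted p of 0.05 was passed by 508 genes, or 4.39%, of which 344 were higher in CLE and 164 higher in LU livers. Values of the groups did not overlap for 819 genes, or 7.08%, with CLE above LU for 4.66% and below for 2.42% of all genes. The share with CLE higher among the 508 genes was 67.7% with the values as deposited and 46.3% among 529 genes (4.57%) after median-of-ratios scaling, so the direction of the whole set moved with the scale of the libraries, and the median difference of all genes moved from 0.03 to -0.00 (log2). The same fit gave 698 genes, or 6.03%, between CLE and HFD livers and 119 genes, or 1.03%, between LU and HFD livers. These comparisons share the HFD mice. Their numbers do not test CLE against LU, and of the 698 genes 0 and of the 119 genes 1 passed in the direct comparison of CLE with LU (limma). The same holds for single genes below, where passing against HFD in 1 group only is not a difference between CLE and LU. The numbers against HFD rested on single mice, ranging from 28 to 2190 for CLE and from 11 to 213 for LU when each mouse was left out in turn. The counts were 28 without HFD mouse 15, 55 without CLE mouse 4 and 2190 without CLE mouse 2, and for LU 11 without LU mouse 3 and 213 without LU mouse 8.

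A gene that misses the threshold is not thereby shown to be alike, so the intervals of the differences were examined. For 11230 genes (97.1%), the 95% interval of CLE minus LU lay within 1 log2 unit of 0, that is, within a doubling or halving on the log2(FPKM + 1) scale. For 9291 genes (80.3%), it lay within 0.58, about 1.5-fold. Intervals extended to a median of 0.31 on either side of the difference, and the median absolute difference was 0.10, compared with 0.21 between CLE and HFD and 0.17 between LU and HFD livers. For 336 genes the interval reached past 1 log2 unit, so a difference of this size was not excluded, and for 3 of these the whole interval lay past it, Gm10275 included. Such an interval can rest on a listed 0. Serpina1b, summed by GENCODE M21 gene, differed by 7.68 (95% interval 3.04 to 12.31). It was listed at 0 FPKM in LU mice 2 and 3 but at 2743 FPKM in LU mouse 8. Among abundant genes (a mean of at least 100 FPKM), the intervals nearest to 0 belonged to the translation factor Eif4g2, the tetraspanin Tspan12, the glyoxalase Glo1, which detoxifies methylglyoxal, and the aldehyde dehydrogenases Aldh9a1 and Aldh8a1. Eif4g2 was at 171, 161 and 164 FPKM in CLE and 168, 164 and 167 FPKM in LU livers, a difference of -0.01 (95% interval -0.21 to 0.19). Tspan12 was at 108, 102 and 112 FPKM in CLE and 103, 111 and 104 FPKM in LU livers.

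The gene that passed was Gm10275, annotated as a transcribed processed pseudogene on chromosome 10 (GRCm38 chr10:29698746-29699380, minus strand). Its level was 3.05, 3.23 and 2.57 FPKM in the CLE livers and 0.37, 0.30 and 0.33 FPKM in the LU livers. HFD livers were at 2.49, 1.73 and 2.27 FPKM and ND livers at 1.51, 1.94 and 1.82 FPKM. Thus the LU livers stood below all the other livers, and CLE livers stood near HFD livers. The difference between CLE and LU was 1.57 (95% interval 1.30 to 1.83, adjusted p = 0.00012, limma). LU livers fell by 1.24 relative to HFD livers (adjusted p = 0.0010), and the CLE value was 0.33 above HFD (adjusted p = 0.10). A processed pseudogene is a copy of a messenger RNA inserted back into the genome. Of the 605 windows of 31 bases in the 635 bases of the Gm10275 transcript, 604 were found word for word in transcripts of Rpl12, the gene of a protein of the large ribosomal subunit, and matching windows covered all but 1 base. The first 150 bases from the first ATG of this transcript (chr10:29699141-29699290, minus strand, GENCODE M21) are printed because each of them lies in a window shared with Rpl12. The start codon is in capitals.
Gm10275: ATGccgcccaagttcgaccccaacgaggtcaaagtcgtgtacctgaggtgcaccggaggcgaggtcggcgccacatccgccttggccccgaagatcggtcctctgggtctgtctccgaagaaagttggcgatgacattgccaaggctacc
Fragments of these genes cannot be assigned by sequence, and the FPKM of Gm10275 depends on how fragments were shared out with Rpl12. Rpl12 was at 93.6, 148 and 108 FPKM in CLE and 102, 100 and 95.2 FPKM in LU livers, so the groups overlapped, with a difference of 0.20 (-0.15 to 0.56). The part of this sharing in the Gm10275 result was not tested.

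Among genes whose CLE and LU values did not overlap, the largest differences with CLE higher included the transcriptional regulators Id1, Tbx3 and Id3. The 20 largest differences of this kind were selected, 10 in each direction, and 1 of those with LU higher is not reported here. None of the 20 passed the adjusted test, their adjusted p-values (limma) running from 0.16 to 0.97, and non-overlap held for 7.08% of all genes. Id1, an inhibitor of DNA binding that responds to bone morphogenetic protein (BMP), was at 16.2, 26.7 and 16.5 FPKM in CLE and 6.81, 3.45 and 7.34 FPKM in LU livers. HFD livers were at 12.1, 5.21 and 3.85 FPKM. CLE livers thus lay above all the LU and HFD livers, with a difference from LU of 1.61 (95% interval 0.79 to 2.44, adjusted p = 0.75). Against HFD, Id1 rose by 1.47 in CLE livers (adjusted p = 0.044), and the LU value was -0.15 (adjusted p = 0.85). Id3, of the same family, was at 42.6, 89.0 and 52.5 FPKM in CLE and 22.9, 29.0 and 32.5 FPKM in LU livers, a difference of 1.04 (0.41 to 1.68). HFD livers spanned 21.9 to 49.5 FPKM and overlapped with both. Tbx3, a T-box repressor marking hepatocytes near the central vein, was at 21.7, 29.0 and 21.3 FPKM in CLE and 13.2, 6.12 and 14.9 FPKM in LU livers, a difference of 1.08 (0.35 to 1.81).

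Other targets of BMP signalling were then read. In the liver this pathway runs from the ligand Bmp6 through SMAD proteins to the inhibitory Smad6 and Smad7, to Id genes and to hepcidin (Hamp), the hormone that limits iron release. Smad6, Atoh8 and Id2 were chosen after their values were seen. Smad6 was at 4.81, 7.26 and 5.77 FPKM in CLE and 3.85, 3.88 and 3.52 FPKM in LU livers, with no overlap and a difference of 0.53 (0.25 to 0.82, adjusted p = 0.75). Smad6 rose by 0.71 in CLE relative to HFD livers (adjusted p = 0.020), and the LU value was 0.18 (adjusted p = 0.45). Atoh8, a basic helix-loop-helix factor upstream of hepcidin, was at 13.2, 26.6 and 18.9 FPKM in CLE and 12.99, 12.02 and 12.44 FPKM in LU livers. Smad7 overlapped between the groups, with 5.36, 7.71 and 5.77 FPKM in CLE and 3.24, 5.44 and 4.17 FPKM in LU livers. Hamp was at 572, 1769.5 and 923 FPKM in CLE and 496, 623 and 506 FPKM in LU livers, a difference of 0.86 (0.09 to 1.63) in which CLE mouse 4 was highest, and 73.4% of its sum came from Hamp transcripts and the rest chiefly from the neighbouring copy Hamp2. Id2 was close between the groups, at 160, 135 and 174 FPKM in CLE and 129, 184 and 137 FPKM in LU livers, and Bmp6 differed by 0.00. The list of 15 iron and metallothionein genes, which holds Id1, Smad7, Hamp and Bmp6, had 2 members past an unadjusted p of 0.05 with CLE higher and 0 with LU higher, against 2.97% and 1.42% of all genes, and a median difference of 0.10 beside 0.03 for all genes. The 2 members were Id1 and Hamp, so this count repeats the values given above and adds nothing to them. 

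For Hamp, the 250 bases before the RefSeq start (GRCm38.p6 chr7:30944030-30944279, minus strand) are printed with the letters GGCGCC, the core of a BMP response element, in capitals.
Hamp: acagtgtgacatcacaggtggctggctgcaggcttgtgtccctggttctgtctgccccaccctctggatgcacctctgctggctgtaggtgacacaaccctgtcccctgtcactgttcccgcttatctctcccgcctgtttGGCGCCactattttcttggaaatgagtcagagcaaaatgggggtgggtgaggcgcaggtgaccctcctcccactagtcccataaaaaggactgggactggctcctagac
The match, which reads the same on both strands, began 109 bases before the start. It was found in 9.59% of 32851 promoter windows of this length, and those of Id3, Smad6 and Atoh8 held none. The promoter set used had no window for Id1 or Tbx3, so these were not searched. The match is a description of the sequence.

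The other genes of this kind with CLE higher had varied functions. Slc25a22, a mitochondrial glutamate carrier, was at 176, 302 and 317 FPKM in CLE and 157, 120 and 163 FPKM in LU livers, and it rose by 1.19 in CLE relative to HFD livers (adjusted p = 0.019). Its CLE minus LU difference was 0.81 with the sum of its transcripts and 0.056 with the most abundant transcript alone. Nuak2, an AMPK-related kinase, was at 7.27, 11.7 and 10.4 FPKM in CLE and 5.78, 4.59 and 6.04 FPKM in LU livers. It rose by 0.79 in CLE relative to HFD livers (adjusted p = 0.035), and the LU value was 0.07 (adjusted p = 0.85). Rpl39-ps had the smallest adjusted p after Gm10275, 0.16, with 286, 423 and 329 FPKM in CLE and 167, 168 and 198 FPKM in LU livers. It is a pseudogene too, and matching windows of Rpl39 covered 99.3% of its annotated transcript, while Rpl39 itself was listed at 98.8, 158 and 118 FPKM in CLE and 173, 164 and 160 FPKM in LU livers. Every LU value thus lay below the CLE values for the copy and above them for Rpl39, the part of shared fragments in this was not tested, and neither difference passed, although Rpl39-ps did after quantile normalization. S100a8, a calcium-binding protein of neutrophils, was at 7.74, 3.67 and 5.10 FPKM in CLE and 1.154, 3.605 and 3.596 FPKM in LU livers. The summed level of 11 neutrophil markers was 9.97 to 15.9 FPKM in CLE and 4.16 to 10.9 FPKM in LU livers, with 8 of the 11 under 1 FPKM in all 6 livers. In whole liver, fewer cells of a type and less RNA per cell cannot be told apart. The remaining members were Rec114, a meiotic recombination gene, Rccd1, and Cd99, whose transcripts lay on an unplaced scaffold, with differences of 0.98, 0.92 and 0.95.

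**Figure D2:**
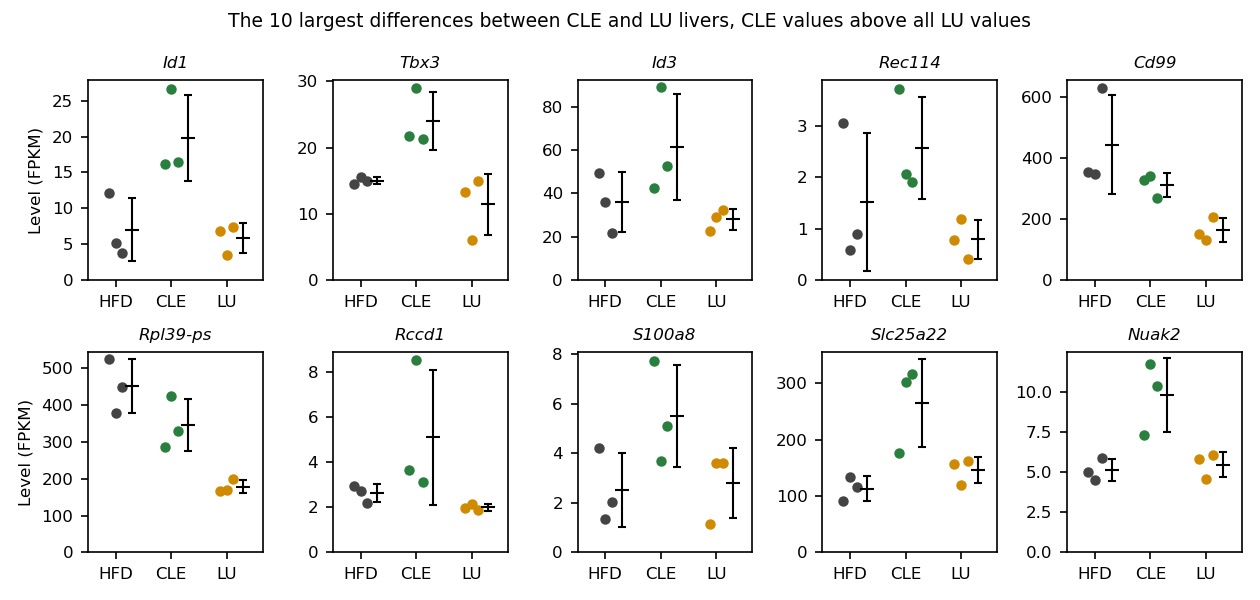
Level in FPKM (vertical axes, from 0) of the 10 genes with the largest differences among those whose CLE values lay above all LU values, in HFD, CLE and LU livers. Points are mice and the bar beside them is the mean with its SD (n = 3), and Id1 was between 16.2 and 26.7 FPKM in CLE and between 3.45 and 7.34 FPKM in LU livers.

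With LU higher, the largest differences were those of Vps39 and Chac1. Chac1 degrades glutathione and is a target of the amino acid and stress factor ATF4. It was at 0.90, 1.03 and 0.55 FPKM in CLE and 2.93, 6.67 and 2.73 FPKM in LU livers, a difference of -1.41 (-2.16 to -0.67, adjusted p = 0.75), with LU mouse 3 highest. HFD livers were at 1.38, 0.85 and 2.26 FPKM, below all LU livers and overlapping with the CLE livers. Of the 25 genes of the integrated stress response and chaperones, Chac1 was the only member past an unadjusted p of 0.05 with LU higher, and Atf5, a stress-induced relative of ATF4, the only one with CLE higher. Of all genes, 1.42% passed it with LU higher and 2.97% with CLE higher. Atf5 was at 217, 294 and 199 FPKM in CLE and 147, 196 and 190 FPKM in LU livers, and Atf4, Ddit3, Trib3 and Hspa5 differed by 0.03, 0.01, 0.17 and -0.12. The median of the list was -0.05.

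In the 250 bases before the RefSeq start of Chac1 (GRCm38.p6 chr2:119350992-119351241, plus strand), the letters TGATGNAA, an amino acid response element, were found once, on the minus strand, starting 193 bases before the start, and are in capitals.
Chac1: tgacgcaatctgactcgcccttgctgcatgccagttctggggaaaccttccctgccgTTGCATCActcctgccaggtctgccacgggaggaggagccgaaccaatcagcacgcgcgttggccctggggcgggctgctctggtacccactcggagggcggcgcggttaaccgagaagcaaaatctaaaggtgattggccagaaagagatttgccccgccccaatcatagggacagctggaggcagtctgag
These letters, sought on both strands, were held by 3.45% of the promoter windows.

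Vps39, a subunit of the HOPS complex that tethers late endosomes to lysosomes, was at 8.90, 6.98 and 5.92 FPKM in CLE and 36.3, 9.08 and 28.0 FPKM in LU livers. LU mouse 3 was close to the CLE mice. Its difference was -1.44 with the sum of its transcripts and -0.08 with the most abundant transcript alone, and without LU mouse 3 it was -2.01 and passed the adjusted test (limma). Snrpd3, a core protein of the spliceosome, was at 16.1, 20.8 and 20.6 FPKM in CLE and 34.2, 27.3 and 32.0 FPKM in LU livers, a difference of -0.68 (-1.03 to -0.33). It rose by 0.77 in LU relative to HFD livers (adjusted p = 0.042). The direction turned to 0.16 with the most abundant transcript alone, and the gene passed with a difference of -1.38 (adjusted p = 0.0035, limma) with reference transcripts only. Camk2b, a calcium-dependent kinase, was at 2.28, 2.78 and 3.78 FPKM in CLE and 6.28, 7.77 and 7.09 FPKM in LU livers, a difference of -1.04. Ntrk2, the receptor of brain-derived neurotrophic factor, was at 1.12, 0.51 and 1.63 FPKM in CLE, 2.03, 1.78 and 2.56 FPKM in LU and 4.13, 4.87 and 4.75 FPKM in HFD livers. It fell by 1.46 in CLE and by 0.84 in LU relative to HFD livers (adjusted p = 0.0023 and 0.042), and the difference between CLE and LU was -0.61 (-0.99 to -0.23, adjusted p = 0.97). With reference transcripts only, the latter was -0.056. Lyrm9, Clec2h and Fam13a differed by -1.11, -0.97 and -0.67, and TM, the name given to assembled transcripts without a reference gene, by -0.64.

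**Figure D3:**
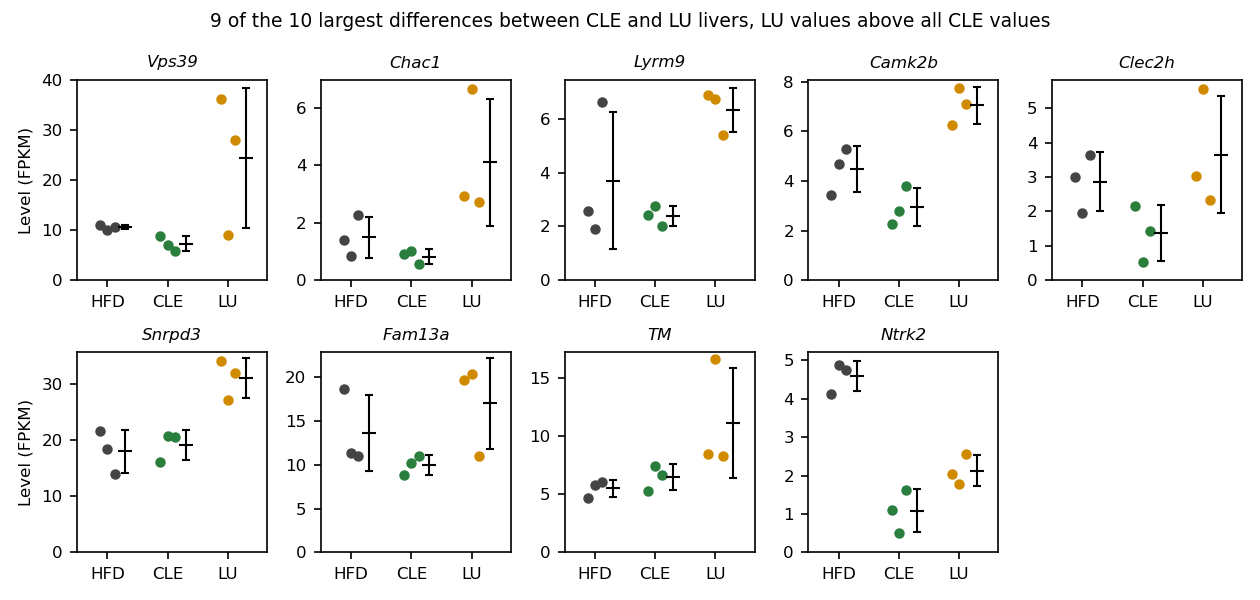
Level in FPKM (vertical axes, from 0) of 9 of the 10 genes with the largest differences among those whose LU values lay above all CLE values, in HFD, CLE and LU livers. Points are mice and the bar beside them is the mean with its SD (n = 3), and in Vps39 LU mouse 3 was at 9.08 FPKM against 36.3 and 28.0 FPKM in the other LU livers.

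The genes of phosphatidylcholine and sphingolipid synthesis, which the study examined, had CLE minus LU differences from -0.30 to 0.06. Of the 11, 0 passed an unadjusted p of 0.05 (limma), against 4.39% of all genes, and the 95% intervals of all 11 lay within 1 log2 unit of 0, as did 97.1% of those of all genes, so that neither count sets them apart from other genes. The study chose these genes on the same mice, so they are not an independent sample. Chpt1 and Cept1 transfer phosphocholine to diacylglycerol in the last step of the Kennedy pathway. Chpt1 was at 173, 170 and 161 FPKM in CLE and 187, 176 and 175 FPKM in LU livers, a difference of -0.09 (-0.32 to 0.13). Relative to HFD, Chpt1 fell by 0.44 in CLE livers (adjusted p = 0.036), and the LU value was -0.35 (adjusted p = 0.11). Its CLE values lay below all LU values, as for 2.42% of all genes, but the unadjusted p was 0.38 (limma). Passing in the one group and not in the other was therefore not accompanied by a difference between them that passed. Cept1 was at 45.8, 42.2 and 45.4 FPKM in CLE and 39.3, 44.3 and 45.4 FPKM in LU livers, and it fell relative to HFD by 0.45 in CLE (adjusted p = 0.034) and by 0.50 in LU livers (adjusted p = 0.042). Pemt, which methylates phosphatidylethanolamine, differed by -0.00 (-0.28 to 0.27), and Lcat, which esterifies plasma cholesterol, by -0.03 (-0.25 to 0.20).

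Sgms1 and Sgms2 make sphingomyelin from ceramide. Sgms1 was at 10.3, 6.85 and 8.07 FPKM in CLE and 9.962, 7.0004 and 12.006 FPKM in LU livers, a difference of -0.17 (-0.61 to 0.28). It fell by 0.78 in CLE relative to HFD livers (adjusted p = 0.045), and the LU value was -0.61 (adjusted p = 0.14). Sgms2 had the largest difference of the 11, -0.30 (-0.68 to 0.07), with 12.2, 7.62 and 10.6 FPKM in CLE and 11.7, 13.8 and 12.2 FPKM in LU livers. The ceramide synthases Cers2, Cers4 and Cers6 differed by 0.06, -0.11 and 0.05, Sptlc2, of the enzyme that opens the pathway, by -0.19 and Kdsr, of its second step, by -0.12. In the whole list of 28 sphingolipid genes, 0 passed an unadjusted p of 0.05 in either direction, against 4.39% of all genes. Their median difference was -0.02, and the intervals of 27 lay within 1 log2 unit. The 20 Kennedy pathway and phosphatidylcholine genes had a median of 0.01, and 1 passed with CLE higher, as did 2.97% of all genes. This was Pla2g7, the secreted platelet-activating factor acetylhydrolase, with 3.32, 2.96 and 3.27 FPKM in CLE and 1.43, 2.92 and 2.51 FPKM in LU livers.

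**Figure D4:**
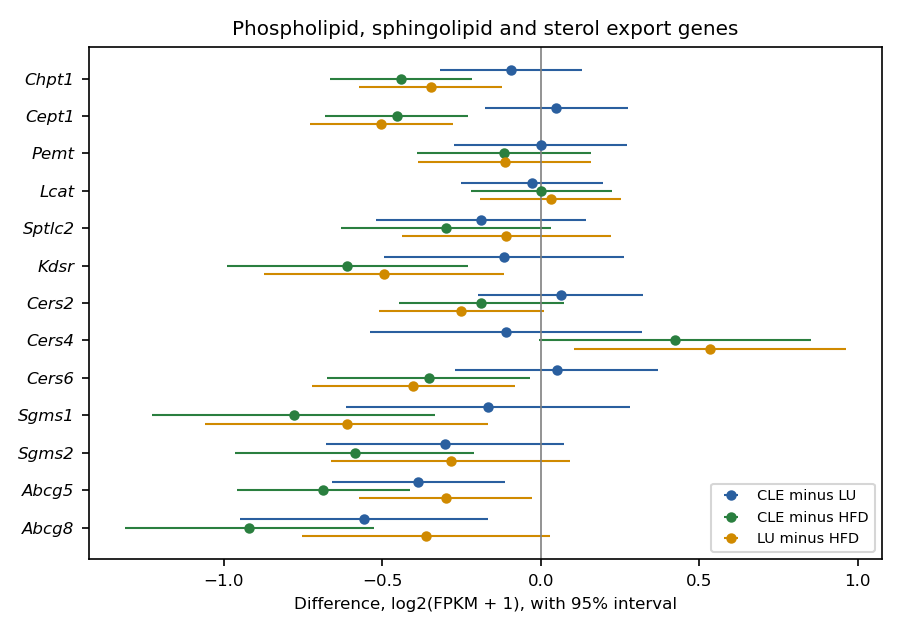
Differences in log2(FPKM + 1) with 95% intervals (horizontal axis) of 13 genes of phospholipid and sphingolipid synthesis and sterol export, for CLE minus LU, CLE minus HFD and LU minus HFD (n = 3 mice per group). For the 11 synthesis genes the CLE minus LU interval includes 0, and for Abcg5 and Abcg8 it lies below 0.

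The sterol exporters had lower values in CLE than in LU livers, without passing the adjusted test. Abcg5 and Abcg8 form the transporter pair that moves cholesterol and plant sterols into bile. Abcg5 was at 70.4, 70.3 and 80.4 FPKM in CLE, 113, 83.5 and 94.7 FPKM in LU and 131, 107 and 120 FPKM in HFD livers. CLE values lay below all LU values, with a difference of -0.39 (-0.66 to -0.11, adjusted p = 0.97). Abcg8 was at 39.8, 22.7 and 34.6 FPKM in CLE and 55.5, 39.0 and 47.6 FPKM in LU livers, with a slight overlap and a difference of -0.56 (-0.95 to -0.17). Relative to HFD, Abcg5 fell by 0.69 and Abcg8 by 0.92 in CLE livers (adjusted p = 0.019 and 0.022), and the LU values were -0.30 and -0.36 (adjusted p = 0.21 and 0.27). They were the 2 members past an unadjusted p of 0.05 among 22 sterol efflux and bile acid genes, whose median was -0.02. Of all genes, 1.42% passed it with LU higher. Cyp2c70, which makes muricholic acid, was at 46.9, 45.2 and 81.6 FPKM in CLE and 91.8, 96.0 and 55.7 FPKM in LU livers.

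The 6 lists pooled here were fatty acid synthesis, uptake and oxidation, triglyceride and lipid droplet, cholesterol synthesis, and insulin signalling. Of their 121 genes, 3 had an unadjusted p under 0.05 (limma), which is 2.48% of them and compares with 4.39% of all genes. Outside this pool, 1 of 12 Cyp4a and Cyp4f, 1 of 18 lipoprotein and 2 of 22 sterol efflux and bile acid genes passed. The share therefore depends on the lists pooled. Of 16 genes of fatty acid synthesis 0 passed an unadjusted p of 0.05, with a median of -0.01, and the same held for 22 cholesterol synthesis genes (median -0.01), 14 genes of fatty acid uptake (-0.01) and 20 genes of insulin signalling (-0.01). Of 27 genes of fatty acid oxidation, 2 passed with CLE higher, the peroxisomal thioesterases Acot3 and Acot4, and the median was 0.09. Acot3 was at 36.3, 49.4 and 16.7 FPKM in CLE and 17.7, 12.8 and 20.1 FPKM in LU livers, with CLE mouse 11 among the LU values. G0s2, an inhibitor of the triglyceride lipase Pnpla2, was at 428, 664 and 502 FPKM in CLE and 288, 130 and 493 FPKM in LU livers, and was the 1 member past it of 22 triglyceride and lipid droplet genes. The fatty acid omega-hydroxylase Cyp4a31 was at 33.5, 39.8 and 26.0 FPKM in CLE and 18.35, 21.95 and 31.92 FPKM in LU livers. It rose by 1.03 in CLE relative to HFD livers (adjusted p = 0.022), and the LU value was 0.57 (adjusted p = 0.15).

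Among the enzymes that handle flavonoids, 2 sulfotransferases passed an unadjusted p of 0.05. None of 11 UDP-glucuronosyltransferases passed it (median -0.07), nor did any of 5 aryl hydrocarbon receptor and Cyp1 genes (0.19) or of 18 NRF2 antioxidant genes (0.10). The receptor list named 11 genes, of which only Ahr, Arnt, Cyp1a2, Nqo1 and Tiparp were tested, so Cyp1a2 was its only Cyp1 gene. Of the 18 NRF2 genes 16 were above 0, beside 6845 of the 11566 genes tested. The highest NRF2 difference was 0.20, and the median was 0.05 after median-of-ratios scaling. Of 6 sulfotransferases 0 were above 0, with a median of -0.18 (-0.26 to -0.18 with a mouse left out), and the 2 that passed had LU higher, as had 1.42% of all genes. Sult1e1, the estrogen sulfotransferase, was at 0.33, 0.27 and 0.30 FPKM in CLE, 0.93, 2.12 and 0.42 FPKM in LU and 12.0, 6.61 and 15.2 FPKM in HFD livers. It fell by 3.17 in CLE and by 2.52 in LU relative to HFD livers (adjusted p = 0.00057 and 0.0016), and CLE minus LU was -0.65 (-1.26 to -0.05). Sult1b1 was at 15.003, 11.37 and 15.26 FPKM in CLE and 25.2, 21.0 and 14.0 FPKM in LU livers. Gstp2, a glutathione S-transferase, was at 14.2, 42.2 and 25.3 FPKM in CLE and 14.6, 19.1 and 8.09 FPKM in LU livers. It was the 1 member of 19 past an unadjusted p of 0.05, which 2.97% of all genes passed with CLE higher.

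Apart from the marker lists, the medians farthest from that of all genes were those of the growth hormone axis, the acute-phase proteins, the sulfotransferases and the interferon-stimulated genes, all below 0. Of 21 acute-phase proteins 3 were above 0, beside 6845 of the 11566 genes tested. Their median was -0.20, which ran from -0.39 without LU mouse 2 to -0.079 without LU mouse 8. The list holds Saa1, Saa2 and the fibrinogen chain Fga, at -0.64, -0.61 and -0.48. Only Fgg, another fibrinogen chain, passed an unadjusted p of 0.05 with LU higher, at 1489, 1124 and 1622 FPKM in CLE and 1603, 1688 and 2351 FPKM in LU livers, and only Hamp with CLE higher. Of all genes, 1.42% passed it with LU higher and 2.97% with CLE higher. Of 32 interferon-stimulated genes 6 were above 0 and the median was -0.14, but it was -0.30 without LU mouse 2 and turned to 0.030 without LU mouse 3. Usp18, a deISGylase, was the 1 member past it, at 13.2, 6.64 and 12.5 FPKM in CLE and 12.44, 17.98 and 14.85 FPKM in LU livers, with CLE mouse 4 lowest. Of 31 growth hormone axis and major urinary protein (Mup) genes 3 passed with CLE higher and 0 with LU higher, against 2.97% and 1.42% of all genes. Their median was -0.25 (-0.67 without LU mouse 8 and -0.057 without LU mouse 3), so that the members that passed and the median differed in sign. Those were Mup9, Mup10 and Elovl3, and Mup9 was listed at 0 in LU mouse 3. Mup genes are near-identical copies, and their values are uncertain. Members of a list vary together across mice, and these medians carry no test. With a mouse left out, the median turned sign in 21 of the 33 lists.

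**Figure D5:**
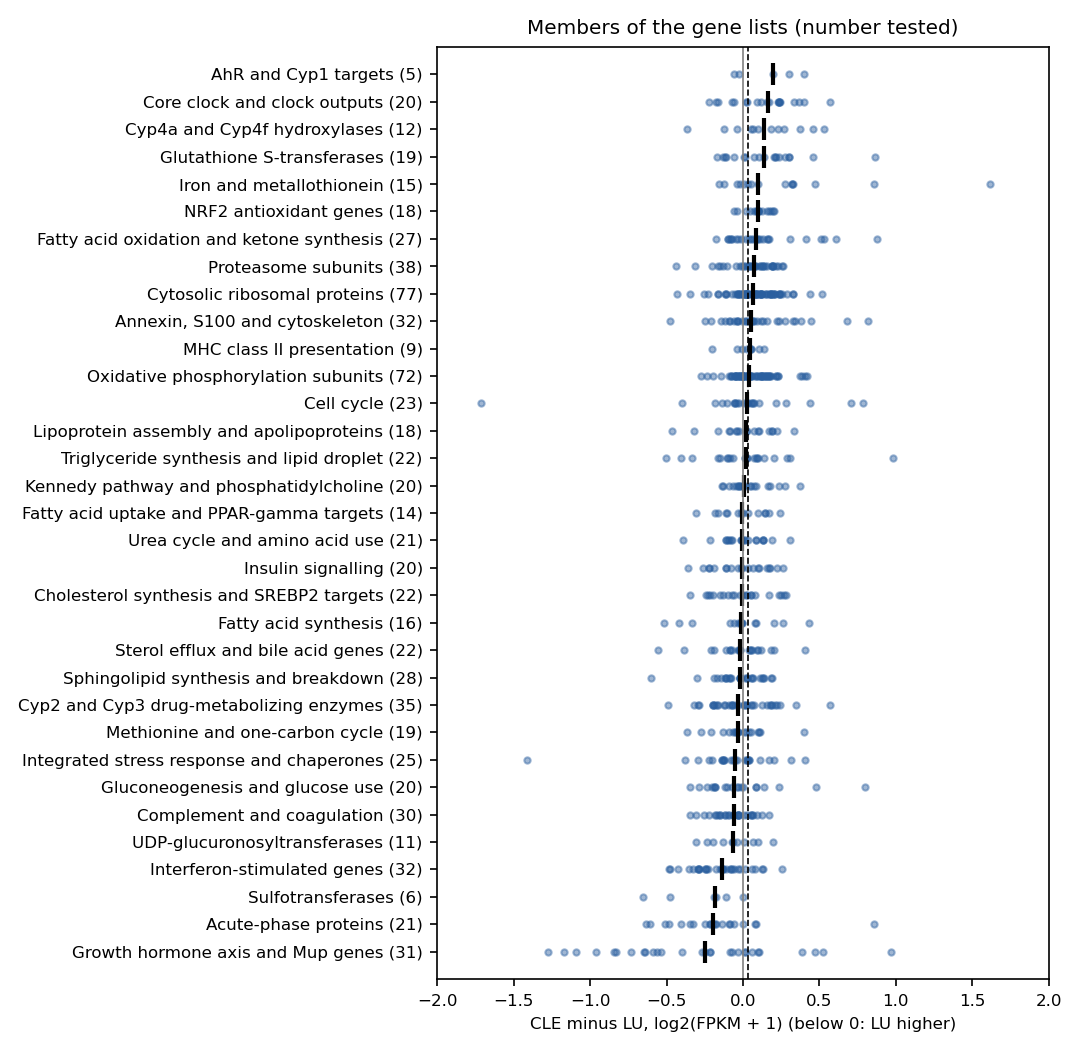
CLE minus LU differences in log2(FPKM + 1) (horizontal axis) of the tested members of 33 gene lists, ordered by their median. Points are genes, thick bars the medians and the dashed line the median of all genes, 0.03, and 2 members beyond 2 log2 units are not drawn. The list medians run from -0.25 to 0.19.

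Of the 20 clock genes 15 were above 0, beside 6845 of the 11566 genes tested, and the median was 0.16 (0.062 without CLE mouse 4). An unadjusted p of 0.05 was passed by 1 of them with CLE higher, as by 2.97% of all genes. This was the repressor Cry1, at 2.37, 2.70 and 3.18 FPKM in CLE and 2.05, 1.56 and 2.13 FPKM in LU livers. Markers of other cells were as follows. Of 16 macrophage and Kupffer cell markers 14 were above 0 (median 0.19, but -0.0086 without LU mouse 2 and 0.33 without LU mouse 3), Gpnmb was the 1 member past an unadjusted p of 0.05, and their summed level was 295 to 420 FPKM in CLE and 243 to 414 FPKM in LU livers. The median was 0.12 for 20 stellate cell and matrix, 0.09 for 12 endothelial, 0.09 for 10 lymphocyte and 0.10 for 5 erythroid markers. It was 0.44 for 3 neutrophil markers and 0.08 for 1 skeletal muscle marker. Below 0 were the medians of 4 cholangiocyte (-0.01) and 4 adipocyte markers (-0.05), and 1 exocrine pancreas marker (-0.30). With a mouse left out, the median turned sign in 8 of the 11 marker lists, the stellate cell, lymphocyte and erythroid lists included. The part of these cells in the other differences was not tested. Among constitutive complexes, the median was 0.04 for 72 subunits of oxidative phosphorylation, 0.07 for 77 ribosomal proteins and 0.07 for 38 proteasome subunits.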

How the data were processed

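Liver mRNA of 12 mice was sequenced as paired ends. Per the labels and the study's methods, the authors used CASAVA 1.8.2, Bowtie2 2.2.3, TopHat2 2.0.12 and Cufflinks 2.2.1 and deposited FPKM per transcript. Whether their normalization factors entered these values is not given in the sources used here, nor is the genome build. Of the known transcripts, 87.6% had the coordinates of GENCODE M21 (GRCm38), which gave the gene positions. Promoter sequences are from RefSeq (GRCm38.p6).

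FPKM was summed by the table's gene names (145894 of 152210 transcripts, 22170 names). Loci that the table merges stand under 1 name. limma 3.58.1 (R 4.3.3) was fitted to log2(FPKM + 1) of all 12 mice with 1 coefficient per group and a variance trend, with Benjamini-Hochberg adjustment at 0.05 over 11566 genes, and was tested on simulated data. Tests of single genes are two-sided. Lists are described by counts and medians, with no set test.

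Named were the genes past the adjusted test, the 10 largest differences in each direction among genes with an unadjusted p under 0.05, values that did not overlap and an average of 1 FPKM or more in the 6 livers (symbols of the form Gm with digits or Rik left out), up to 4 members of each list with the smallest p and any past it, the phospholipid and sphingolipid genes of the study, and the 5 abundant genes with intervals nearest to 0. Of the 10 with LU higher, 1 is not reported here. Smad6, Atoh8, Id2, Rpl12, Rpl39, Adipoq, Lep, Plin1, Serpina1b, Serpina1d and Cfb, and list members given only to illustrate a range or median, were named after their values were seen. Members and lists were chosen with earlier results of these data known. Alternatives were another pseudocount, filter, scaling, fit or choice of transcripts, and each mouse left out. Sums by GENCODE M21 gene and a correction for GC content were added after seeing the data.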

Additional observations from a re-analysis of the deposited data

Results flagged for a closer look

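Gm10275 differed between CLE and LU livers by 1.57 (log2, adjusted p = 0.00012, limma), the 1 gene to pass, and almost all of its transcript is shared word for word with Rpl12. It passed under every alternative tried except the minimum of 5 FPKM, which removes it from the genes tested.

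Below the minimum of 0.5 FPKM, 2 genes of adipocytes passed when no filter was used. Adipoq, the adipocyte hormone adiponectin, was at 0.76, 0.51 and 0.50 FPKM in LU livers (mean 0.589 FPKM), 0.04, 0.12 and 0.14 FPKM in CLE livers and at most 0.04 FPKM in HFD livers (adjusted p = 0.030, limma). Lep, the hormone leptin, was at 0.18, 0.14 and 0.19 FPKM in LU livers (mean 0.167 FPKM) and listed at 0 in the other 9 livers (adjusted p = 0.00075, limma). Plin1, which coats adipocyte lipid droplets, was at 0.34, 0.21 and 0.14 FPKM in LU and at most 0.03 FPKM in CLE livers. Of the 9 adipocyte markers, 1 was at 0 in all 6 livers and 5 were under 1 FPKM in all 6, and their summed level, mostly of genes that hepatocytes also express, was 1978 to 2852 FPKM in CLE and 2177 to 3371 FPKM in LU livers. Their source was not tested.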

How the results depend on the processing

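The number of genes past the adjusted test between CLE and LU was 3 with no filter, 0 with a mean of at least 5 FPKM, 2 with quantile normalization (Rpl39-ps, at 0.91), 2 with the most abundant transcript (Cfb), 2 with reference transcripts only (Snrpd3, at -1.38), and 1 to 3 with a mouse left out, namely 2 without LU mouse 3 (Vps39, at -2.01) and 3 without LU mouse 8 (Serpina1b and Serpina1d, at 11.48 and 9.93, both listed at 0 in the LU mice that remain). The number past an unadjusted p was 811 with no filter, 308 with a mean of at least 5 FPKM, 313 with the 2 groups alone and 343 to 1217 with a mouse left out, 1217 being without CLE mouse 2. Intervals within 1 log2 unit numbered 7010 with a mean of at least 5 FPKM, where fewer genes were tested, and 11020 to 11184 with a mouse left out. They numbered 10551 of 11566 with a pseudocount of 0.1 FPKM. With the most abundant transcript they numbered 9640 of 10714, and with reference transcripts only 9866 of 10676. Under each of these settings the share of genes was below the 97.1% of the main setting. The mean distance between minus within groups turned to 0.0024 with a mean of at least 5 FPKM, 0.000144 with quantile normalization and 0.0015 after GC correction, and ran from -0.025 to 0.031 with a mouse left out. It has no value under the settings that change only the fit. Between CLE and HFD, 127 genes passed with no filter, 1070 with quantile normalization, 263 with the most abundant transcript, 339 after GC correction, 91 with the 2 groups alone and 28 to 2190 with a mouse left out. Between LU and HFD, 57 passed with no filter, 262 with the 2 groups alone and 11 to 213 with a mouse left out. With the most abundant transcript, Cox7c turned to -0.032 and Snrpd3 to 0.16. Among the other named differences between CLE and LU, the most abundant transcript gave 0.57 for Rec114, 0.28 for Rccd1, -0.44 for Fam13a and -1.19 for TM, and a pseudocount of 0.1 FPKM gave 1.61 for Rec114, -1.02 for Ntrk2 and -1.40 for Sult1e1. Leaving out CLE mouse 4 gave 0.55 for Rccd1, 0.43 for Hamp, -0.33 for Abcg8 and -0.40 for Ntrk2, leaving out LU mouse 3 gave 0.47 for G0s2, -0.35 for Sult1e1 and -0.33 for TM, and leaving out LU mouse 2 gave 0.45 for S100a8. The cause of these moves was not tested unless stated. No paired analysis was possible because the mice were housed singly and divided at random, and the labels give no pairs. The number 2, which a CLE and an LU mouse share, marks separate animals. The unknown depth and the 3 mice per group limit what could be detected.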
